A study of Danio rerio with 7 samples.

Results

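Immediate early genes are switched on within minutes of a stimulus, before any new protein has to be made. Of the 30421 gene rows in the table, 10 were described here: fosab, jun, junba, junbb and atf3, egr1 and npas4a, nr4a1, and ier2a and ier2b. They were chosen by name as transcription factors and nuclear regulators induced by activity or stress, by a rule that uses no measured value but was written with earlier results of these data known. By symbol 9 were found in the table, and ier2b was found as LOC100331484 through its NCBI gene ID in the RefSeq gene table of GRCz12tu. All 10 were abundant enough to be tested, among 19275 tested genes.

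Heads of zebrafish (Danio rerio) larvae were pooled for each library at 5 dpf (days post fertilization). The hm41 group held libraries 69, 70 and 71, from mutant larvae of a line with a leaky phenotype, in a series on the blood-brain barrier. The labels do not say whether these larvae were homozygous. The WT group held libraries 66, 67 and 68, from wild type siblings, and no other allele or treatment is named for either group. How many heads entered a pool, and whether the pools came from separate clutches, is not stated, so p-values measure the spread between these libraries only.

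In the nervous system, calcium entry and kinase cascades act on CREB and on serum response factor, factors that are already bound at the promoters of these genes. Fos and Jun proteins then pair through leucine zippers to form AP-1, while Egr, Npas4 and Nr4a proteins bind DNA sites of their own. Stress, wounding and growth factors induce many of the same genes outside neurons, so in whole heads their transcripts can come from any tissue. In such bulk samples, fewer cells of a type and less RNA per cell cannot be told apart.

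Total counts ran from 33775984 to 70534872 in the hm41 libraries and from 35073495 to 114604258 in the WT libraries. The 8 most abundant rows took between 93.6% and 95.7% of each, which left 2142623 to 4509187 counts in hm41 and 1664845 to 4959749 in WT for all other genes. Levels are given in CPM, counts per 1000000 after scaling of the libraries by trimmed mean of M-values (TMM). One CPM stood for 39.1 to 81.0 counts in an hm41 library and for 30.3 to 91.2 counts in a WT library. The 10 genes had between 12 and 392 counts in a library, 7576 in all. Their levels are compared between libraries and not between genes, since no transcript lengths were used.

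No immediate early gene passed the test between hm41 and WT heads. In edgeR's quasi-likelihood fit, with Benjamini-Hochberg adjustment over all tested genes, the adjusted p-values of the 10 lay between 0.381 and 0.982, and 0 of 10 were called at 0.05. Over all genes 11 were called, or 0.0571%. At an unadjusted p under 0.05 there were 2 of the 10, nr4a1 and ier2a, both higher in hm41, against 10.4% of all genes in either direction and 5.35% in the higher direction. DESeq2 also called 0 of the 10 and left 7 without an adjusted p. At an unadjusted p under 0.05 DESeq2 had 1 of the 10, nr4a1, against 1661 of the 27742 genes it fitted. The log2 fold change of hm41 over WT was above 0 for 8 genes and below 0 for 2, with a median of 0.12, against -0.02 over all tested genes, of which 47.9% lay above 0. Without hm41 71 the median of the 10 was 0.03, and without hm41 69 it was 0.22. The number of genes above 0 was 6 without hm41 71, 8 without hm41 69 and 5 without WT 66.

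**Figure D1:**
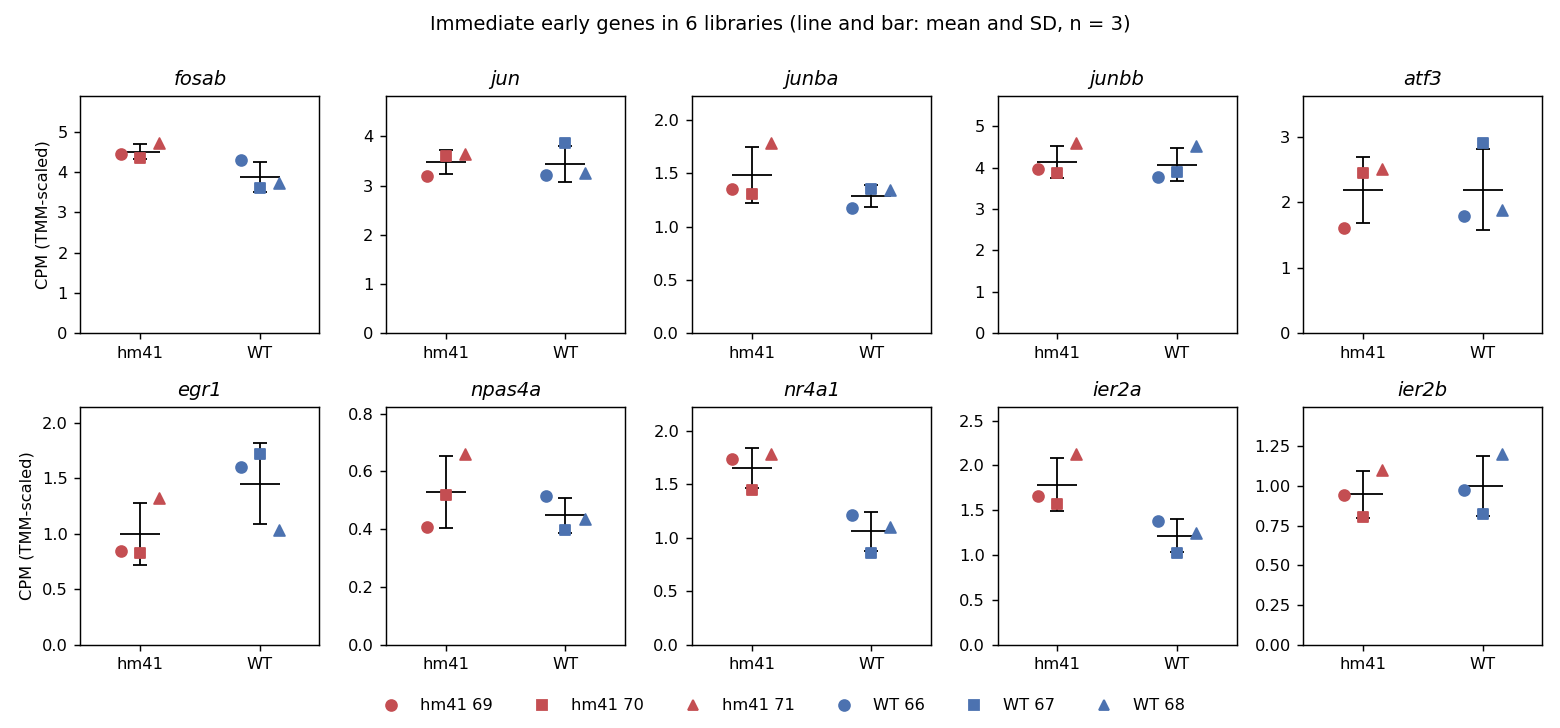
Level of each immediate early gene in CPM (vertical axes, from 0) in the 3 hm41 libraries and the 3 WT libraries (horizontal axis), with 1 symbol per library and the mean and SD as a line and bars. The groups do not overlap for fosab, nr4a1 and ier2a, and they overlap for the other 7.

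The gene with the smallest p was nr4a1, an orphan nuclear receptor that activity, stress signals and growth factors induce in many tissues. It had 1.74, 1.44 and 1.78 CPM in hm41 69, 70 and 71, against 1.22, 0.858 and 1.11 CPM in WT 66, 67 and 68. Every hm41 library lay above every WT library, and the lowest value was that of WT 67, where 26 counts stood behind it (95% exact Poisson interval 17.0 to 38.1, for counting error only). The means were 1.65 ± 0.184 CPM in hm41 and 1.06 ± 0.184 CPM in WT (SD, n = 3 each). This is a log2 fold change of 0.60 (95% confidence interval 0.10 to 1.101), or 1.52-fold, with an unadjusted p of 0.0204 and an adjusted p of 0.381 by edgeR's test, so it was not called. A smaller p was found for 5.34% of all tested genes.

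Of the paralogs ier2a and ier2b, which encode small nuclear proteins induced early by growth factors, ier2a had 1.66, 1.57 and 2.12 CPM in hm41 69, 70 and 71, against 1.38, 1.02 and 1.247 CPM in WT 66, 67 and 68. Again the groups did not overlap, with hm41 71 highest and WT 67 lowest. Its log2 fold change was 0.52 (95% interval 0.03 to 1.01; unadjusted p = 0.0379 and adjusted p = 0.449, edgeR's quasi-likelihood test). For ier2b the values were 0.945, 0.802 and 1.099 CPM in hm41, against 0.976, 0.825 and 1.1996 CPM in WT. Here the groups overlapped, and the highest value was that of WT 68. The log2 fold change of ier2b was -0.11 (95% interval -0.68 to 0.46, adjusted p = 0.928, edgeR), and its sign turned without hm41 70 (0.0052), without WT 68 (0.037) and with library totals alone (0.09), which move the median of all genes by 0.22.

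The ratio of the counts of both paralogs within a library needs no scaling between libraries. There were 1.76, 1.95 and 1.93 ier2a counts per ier2b count in hm41 69, 70 and 71, against 1.42, 1.24 and 1.04 in WT 66, 67 and 68. The lowest hm41 ratio was thus above the highest WT ratio, with means of 1.88 ± 0.108 in hm41 and 1.23 ± 0.188 in WT (SD, n = 3 each). On the log scale the hm41 ratio was 1.54-fold the WT ratio (two-sided exact permutation test p = 0.1, the smallest that 3 against 3 can give; 0.2 adjusted over the 2 paralog pairs). The test therefore could not pass 0.05. Leaving out each library in turn gave 1.42 (without WT 68) to 1.66 (without WT 66). The other paralog pair, junba over junbb, had ratios of 0.342, 0.339 and 0.388 in hm41, against 0.310, 0.347 and 0.296 in WT. These groups overlapped, with a 1.12-fold difference (two-sided exact permutation test p = 0.3, adjusted p = 0.3).

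**Figure D2:**
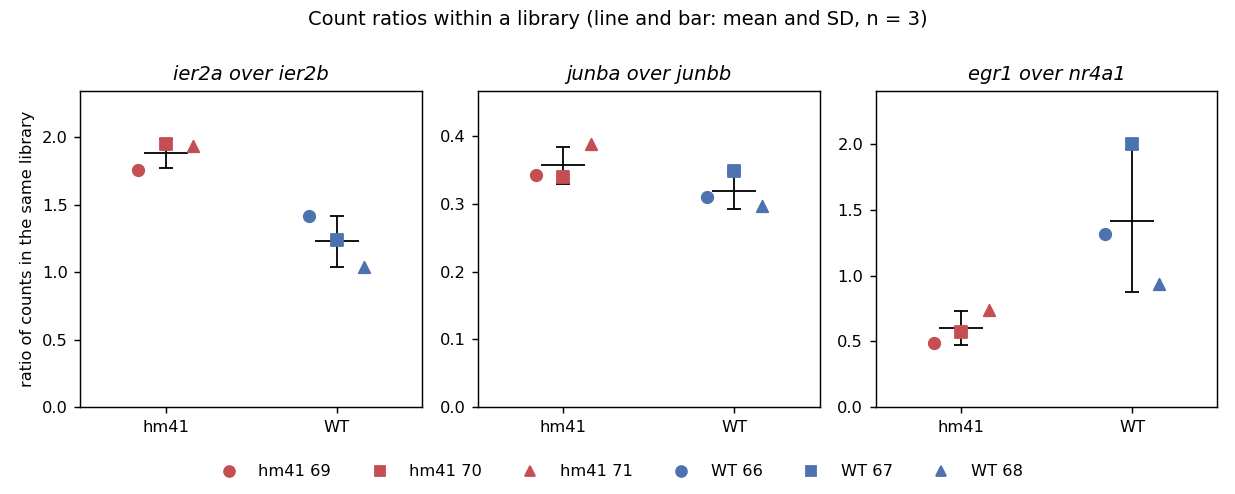
Ratio of the counts of 2 genes within the same library (vertical axes, from 0) in the hm41 and WT libraries, with the mean and SD (n = 3 each) as a line and bars. The hm41 libraries lie above WT for ier2a over ier2b and below WT for egr1 over nr4a1, and the groups overlap for junba over junbb. The pair of egr1 and nr4a1 was chosen after the values were seen.

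Of the AP-1 genes, fosab encodes a Fos protein, the partner that cannot pair with itself and needs a Jun protein. It had 4.45, 4.34 and 4.71 CPM in hm41 69, 70 and 71, against 4.30, 3.60 and 3.72 CPM in WT 66, 67 and 68. The groups did not overlap, but the gap between hm41 70 and WT 66 was small beside the spread within WT. On the log2 scale fosab had a fold change of 0.21 (95% interval -0.14 to 0.56, with an adjusted p of 0.707, edgeR). A lack of overlap with hm41 higher, as in nr4a1, ier2a and fosab, was found for 3 of the 10 genes, against 8.09% of all tested genes, and a lack of overlap with hm41 lower for 0 of the 10, against 8.44%. The same 3 genes did not overlap when libraries were scaled by DESeq2 size factors, by library totals alone or without the 50 most abundant genes.

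Of the Jun genes, jun and junbb had the log2 fold changes closest to 0 among the 10 genes. For jun, whose protein is the common partner of Fos, the values were 3.19, 3.59 and 3.64 CPM in hm41 69, 70 and 71, against 3.21, 3.86 and 3.26 CPM in WT 66, 67 and 68. Its highest library was WT 67 and its lowest hm41 69, and the log2 fold change was 0.03 (95% interval -0.34 to 0.39). The JunB paralog junbb had 3.96, 3.86 and 4.59 CPM in hm41, against 3.78, 3.89 and 4.53 CPM in WT.

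The groups of junbb lay on top of each other, with a log2 fold change of 0.02 (95% interval -0.34 to 0.38). The second JunB gene, junba, had 1.35, 1.31 and 1.78 CPM in hm41, against 1.17, 1.35 and 1.34 CPM in WT. Only hm41 71 stood above the other libraries for junba. Its log2 fold change was 0.20 (95% interval -0.29 to 0.69), and it was 0.07 without hm41 71. The signs of jun and junbb turned when some single libraries were left out, to values no larger in size than 0.05.

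For atf3, a stress-induced partner of Jun proteins that often represses its targets, the values were 1.61, 2.44 and 2.51 CPM in hm41 69, 70 and 71, against 1.79, 2.90 and 1.88 CPM in WT 66, 67 and 68. Both groups held low and high libraries, WT 67 being the highest of the 6 and hm41 69 the lowest. The means were 2.19 ± 0.503 CPM in hm41 and 2.19 ± 0.619 CPM in WT (SD, n = 3 each), and the log2 fold change was 0.05 (95% interval -0.45 to 0.54), with a sign that turned when some single libraries were left out. Without hm41 69 and WT 67 together, an alternative added after the data were seen, it was 0.43 (adjusted p = 0.519, edgeR).

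The zinc finger factor egr1, used widely as a mark of neuronal activity, had the lowest log2 fold change of the 10. It had 0.843, 0.827 and 1.32 CPM in hm41 69, 70 and 71, against 1.60, 1.72 and 1.03 CPM in WT 66, 67 and 68. The low hm41 libraries were 69 and 70, and the groups overlapped because hm41 71 lay above WT 68. The means were 0.996 ± 0.279 CPM in hm41 and 1.45 ± 0.364 CPM in WT (SD, n = 3 each), that is, -0.54 on the log2 scale (95% interval -1.12 to 0.04; unadjusted p = 0.0684 and adjusted p = 0.520, edgeR).

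The row LOC110438492 held 2743068 counts in hm41 70, 2589780 in hm41 71 and 5141165 in WT 68. It held 0 in hm41 69, 6 in WT 66 and 1 in WT 67. A split of the libraries at 1000 counts of this row does not follow genotype. Within the libraries above that count, the mean log2 level of egr1 in hm41 minus that in WT was 0.01 (2 hm41 against 1 WT library). Of these, hm41 70 lay below WT 68 and hm41 71 above it (0.827 and 1.32 against 1.03 CPM). Within the others the difference was -0.97 (1 hm41 against 2 WT libraries). For nr4a1 the same differences were 0.53 and 0.76, and for ier2a 0.55 and 0.48. As the groups of these genes did not overlap, any split with both genotypes on each side gives hm41 higher on each. For atf3 they were 0.40 and -0.50, of opposite sign. These within-split differences were not tested. In a fit with a term for the split, the log2 fold change was -0.43 for egr1, 0.61 for nr4a1, 0.49 for ier2a and -0.01 for atf3, and 0 of the 10 genes were called (edgeR). What the split stands for is not given in the labels.

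For npas4a, a factor that in mammals is induced by calcium entry in neurons and by few other stimuli, the counts were low. There were 16, 42 and 27 counts in hm41 69, 70 and 71, against 47, 12 and 37 in WT 66, 67 and 68, or 0.409, 0.518 and 0.659 CPM against 0.515, 0.396 and 0.435 CPM. The groups overlapped, and the 12 counts of WT 67 have a 95% exact Poisson interval of 6.20 to 21.0. For npas4a the log2 fold change was 0.22, with the widest interval of the 10 genes (-0.54 to 0.97, adjusted p = 0.886, edgeR). In GRCz12tu, npas4a and egr1 lie on chromosome 14, the chromosome to which the design text links the leaky phenotype. Between npas4a and spock1, another gene of this chromosome, lie 367 genes of the table, and between egr1 and spock1 lie 237. A part of linked variants in the levels of npas4a and egr1 was not tested.

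**Figure D3:**
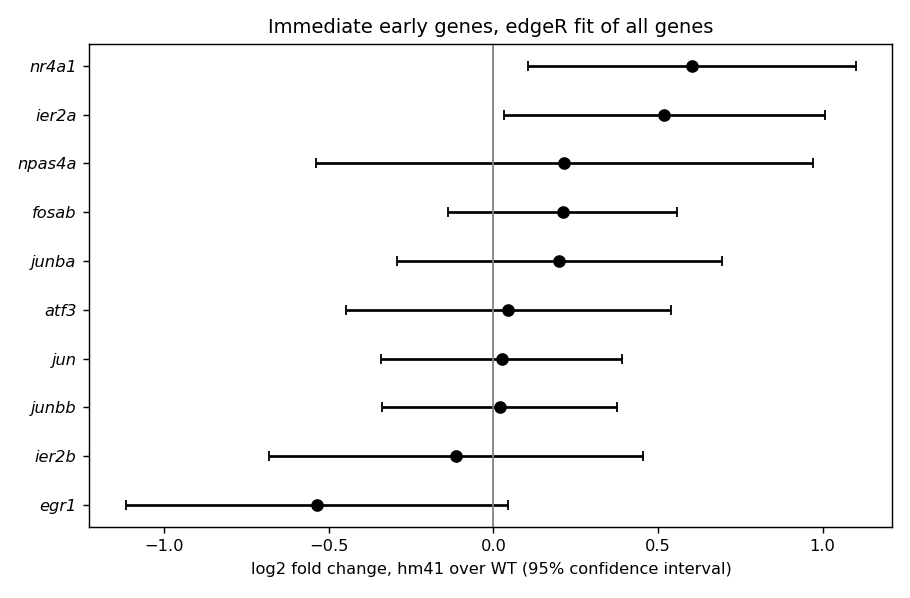
Log2 fold change of hm41 over WT (horizontal axis) for the 10 immediate early genes (vertical axis), with 95% confidence intervals from the edgeR fit of all genes. The intervals of nr4a1 and ier2a lie above 0 before adjustment, and that of egr1 reaches from -1.12 to 0.04.

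Taking the 95% confidence intervals as bounds, 7 of the 10 genes had intervals within a 2-fold change in either direction: fosab, jun, junba, junbb, atf3, npas4a and ier2b. The intervals of nr4a1, ier2a and egr1 reached beyond 2-fold. These are the intervals of the edgeR fit of all genes, in which that of npas4a ended at 0.97, just short of 2-fold. With library totals alone the log2 fold change of npas4a was 0.44 with a standard error of 0.45, so the count depends on the scaling. The biological coefficient of variation is edgeR's estimate of the variation between libraries of one group. It was 14.5% to 24.8% for the 10 genes, against a median of 21.5% over all tested genes. This estimate is drawn toward that of genes of similar abundance and is not the observed spread of a gene.

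The count ratio of egr1 to nr4a1, a pair chosen after the values were seen, is a description with no test and says nothing of either gene alone. There were 0.485, 0.573 and 0.740 egr1 counts per nr4a1 count in hm41 69, 70 and 71, against 1.32, 2.00 and 0.936 in WT 66, 67 and 68. All hm41 ratios were below all WT ratios.

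The order of the libraries differed from gene to gene. For each gene the log2 CPM was centred on its mean over the 6 libraries, and the centred values were averaged over the 10 genes. This average was -0.06, -0.03 and 0.28 in hm41 69, 70 and 71, against -0.03, -0.08 and -0.08 in WT 66, 67 and 68. One library, hm41 71, thus stood above the other 5, which lay within a narrow range and had no clear order among themselves. All 10 genes were above their own mean in hm41 71, and it was the highest library for 6: fosab, junba, junbb, npas4a, nr4a1 and ier2a. By group the average was 0.06 ± 0.189 in hm41 and -0.06 ± 0.029 in WT (SD, n = 3 each), a difference smaller than the spread within hm41. With library totals alone hm41 71 was still highest (0.22), but hm41 69 and 70 followed closely (0.15 and 0.17) and WT 66 was lowest (-0.36).

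**Figure D4:**
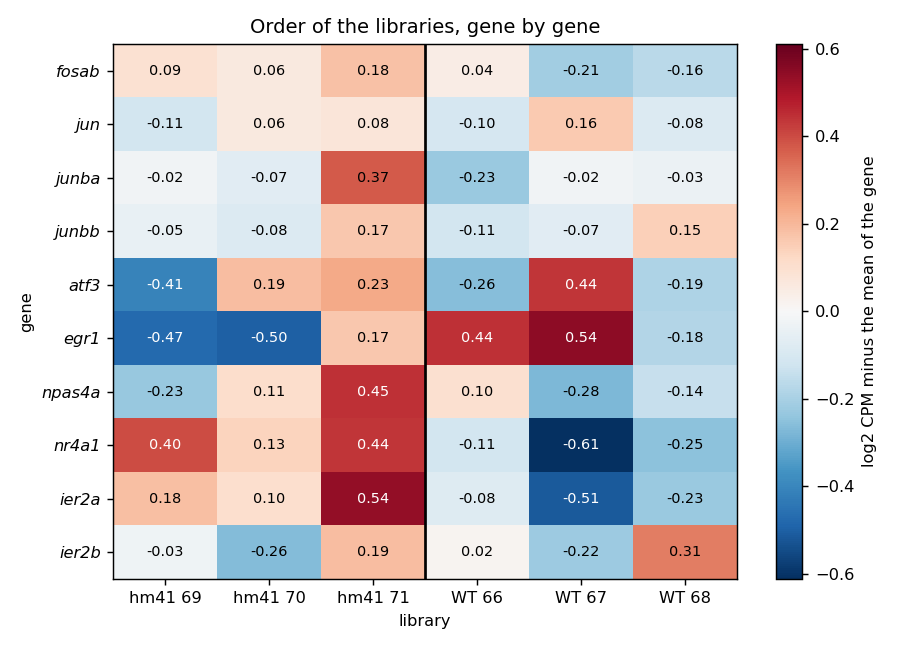
Log2 CPM of each immediate early gene minus its mean over the 6 libraries (colour and printed values), with genes down the page and the hm41 libraries left of the line and the WT libraries right of it. The column of hm41 71 is above 0 for all 10 genes, and the column of WT 67 holds both the highest values (jun, atf3, egr1) and the lowest (fosab, npas4a, nr4a1, ier2a).

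The other library with a pattern of its own was WT 67, the one with the fewest counts outside the 8 most abundant rows. It was the highest of the 6 for jun, atf3 and egr1 and the lowest for fosab, npas4a, nr4a1 and ier2a. The 10 genes therefore did not move as a block in this library. The centred values of WT 67 were 0.54 for egr1, 0.44 for atf3 and 0.16 for jun, against -0.61 for nr4a1, -0.51 for ier2a and -0.28 for npas4a.

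Lists of stress genes and of other tissues also had values of their own in these libraries. The average centred log2 level of 21 heat shock genes was 0.10, 0.03 and 0.24 in hm41 69, 70 and 71, against -0.06, -0.43 and 0.13 in WT 66, 67 and 68. For 21 genes of the ATF4 stress response it was -0.04, 0.07 and 0.23 in hm41, against -0.01, -0.37 and 0.12 in WT. By this average, hm41 71 was the highest library and WT 67 the lowest in both lists. WT 67 was also lowest for markers of neurons, radial glia, photoreceptors, muscle, endothelium, red blood cells, neutrophils and cartilage. It was not lowest for markers of epidermis, macrophages and microglia, lens or liver. The sum of the heat shock genes in CPM was lower in hm41, at 278 to 299 against 319 to 378 in WT. Abundant genes weigh most in such a sum, and hsp90ab1 alone had means of 107 CPM in hm41 and 144 CPM in WT. By log2 fold change, 13 of the 21 heat shock genes were above 0 and 8 below 0. The ATF4 sums overlapped, at 113 to 137 CPM in hm41 and 126 to 139 CPM in WT. In the ATF4 average, by contrast, genes with few counts weigh as much as abundant ones. In WT 67 slc7a11 had 0 counts, while the abundant asns was at its highest there, at 43.3 CPM. The low ATF4 average of WT 67 is therefore not a low level of every gene of the list. The 13 genes of the mitochondrial genome summed to 770, 836 and 783 CPM in hm41, against 914, 1061 and 798 CPM in WT, with WT 67 highest. The part of these values in the immediate early gene levels was not tested.

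By the fixed rule of likeness, the genes closest to the mean pattern of the 10 over the 6 libraries were ubb, which encodes polyubiquitin (Pearson r = 0.99), prkaa2, a catalytic subunit of AMP-activated protein kinase (0.99), the transcription factor IIIA gene gtf3aa (0.98), cpa4 (0.98), slc43a2b (0.98), slc25a10 (0.98), pgpep1 (0.97) and slx1b (0.97). They were the highest of 12955 genes compared over only 6 points, and they share the high value of hm41 71. For ubb the levels were 6.62, 6.96 and 11.4 CPM in hm41 69, 70 and 71, against 7.36, 6.63 and 6.92 CPM in WT 66, 67 and 68. Only hm41 71 stood out, and none of the 8 genes was called between the genotypes (lowest adjusted p 0.333, for cpa4, edgeR).

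Another 7 lists named genes around the 10, from the kinases upstream to genes induced later, and none of their tested members was called over all genes by edgeR's test. At an unadjusted p under 0.05, hm41 was higher for 3 and lower for 1 of 30 other immediate early transcription factors, whose median log2 fold change was -0.06, against 5.35% higher and 5.05% lower among all genes. Of 36 immediate early effectors these numbers were 5 and 1 (median 0.19), and of 13 AP-1 dimer partners 3 and 0 (median 0.27). Of 34 upstream kinases and factors there were 3 and 1 (median 0.09), of 18 late neuronal activity genes 1 and 0 (median 0.10), of 21 ATF4 stress genes 2 and 0 (median -0.02) and of 21 heat shock genes 2 and 1 (median 0.15). Members of the AP-1 list such as fosb also stand in the list of transcription factors.

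Among the other transcription factors csrnp1b, a nuclear protein gene related to an axin-induced gene of mammals, had the smallest p. It had 6.13, 11.9 and 12.7 CPM in hm41 69, 70 and 71, against 6.10, 7.39 and 5.97 CPM in WT 66, 67 and 68. In hm41 69 it was at the WT level, so the groups overlapped. Its log2 fold change was 0.67 (95% interval 0.20 to 1.14, adjusted p = 0.282, edgeR's quasi-likelihood test). Without hm41 69 it was 0.93 and was called (adjusted p = 0.0411, edgeR). That fit leaves out the hm41 library at the WT level, and it called 20 of 20691 genes.

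The Fos relative fosb had 0.920, 1.197 and 1.099 CPM in hm41, against 0.581, 0.627 and 0.870 CPM in WT. Like fosab it did not overlap between the groups, and its log2 fold change was 0.62 (95% interval 0.03 to 1.22, adjusted p = 0.462, edgeR). It was named for its small p, which favours a lack of overlap. Of the 30 other transcription factors, 3 had no overlap with hm41 higher and 2 with hm41 lower, against 8.09% and 8.44% of all tested genes. The CREM paralogs crema and cremb, which encode cyclic AMP response factors, had values of opposite sign. For crema the means were 4.098 ± 0.810 CPM in hm41 and 3.07 ± 0.469 CPM in WT, and for cremb 0.299 ± 0.032 CPM in hm41 and 0.591 ± 0.060 CPM in WT (SD, n = 3 each). Their log2 fold changes were 0.43 (adjusted p = 0.445) and -0.96 (adjusted p = 0.373) by edgeR's test, and the difference between them was not tested. The counts of cremb were low, at 13, 24 and 11 in hm41 and 50, 20 and 48 in WT.

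Of the effectors, sik1, a salt-inducible kinase that holds back CREB coactivators, had 7.23, 9.32 and 12.7 CPM in hm41 69, 70 and 71, against 7.18, 6.86 and 5.36 CPM in WT 66, 67 and 68. The groups did not overlap, by a narrow margin between hm41 69 and WT 66, and the highest library was again hm41 71. Its log2 fold change was 0.59 (95% interval 0.19 to 1.00, adjusted p = 0.257, edgeR). The matrix protein gene ccn1 had a log2 fold change of 0.61 and the phosphatase gene dusp2, whose product switches off MAP kinases, one of 0.60, both with no overlap between the groups (adjusted p = 0.274 and 0.339, edgeR). These genes were named for their small p. A lack of overlap with hm41 higher was found for 4 of the 36 effectors, against 8.09% of all tested genes.

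The ccn1 relative ccn1l2 had 5.16, 5.64 and 5.62 CPM in hm41, against 9.11, 9.90 and 5.45 CPM in WT. Here WT 68 lay among the hm41 libraries, and the log2 fold change was -0.56 (adjusted p = 0.292, edgeR). Without WT 68 ccn1l2 was called, at -0.80 (adjusted p = 0.0488, edgeR). That fit leaves out the WT library that lay among hm41, and it called 44 of 18687 genes. The deposited expected counts of ccn1l2 were not whole numbers, unlike those of the 10 genes, so how its reads were assigned is uncertain.

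Of the upstream genes, mapk14b, a p38 kinase, had 3.45, 3.36 and 3.30 CPM in hm41, against 2.31, 2.24 and 2.32 CPM in WT. The libraries of a group were close to each other and the groups were far apart, but the log2 fold change of 0.55 (95% interval 0.18 to 0.93) did not pass (adjusted p = 0.253, edgeR). The calcium-dependent kinase gene camk4 had a value of 0.65, the kinase gene map2k2a one of 0.55 and the CREB coactivator gene crtc1b one of -0.75, on the log2 scale (adjusted p = 0.334, 0.411 and 0.330, edgeR). All 4 upstream genes named here had no overlap between the groups, but they were named for the smallest p of their list, which favours this. Groups without overlap, in whichever direction, made up 16.5% of all tested genes and 7 of the 34 upstream genes.

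Of the remaining AP-1 partners, atf2, a partner of Jun, had a log2 fold change of 0.87 (means of 1.05 ± 0.245 CPM in hm41 and 0.566 ± 0.130 CPM in WT, SD, n = 3 each), mafk one of 0.50 and fosl2 one of 0.31 (adjusted p = 0.328, 0.446 and 0.598, edgeR). Genes induced later by activity gave values of 0.38 for the secretogranin gene scg2b, 0.93 for the stress hormone gene crhb, which had under 0.4 CPM on average in either group, 0.37 for the pentraxin gene nptx1l and 0.30 for the granin-like gene vgf (adjusted p between 0.474 and 0.670, edgeR). In the stress lists ppp1r15a, a phosphatase subunit that ends the stress block of translation, had a value of 0.41, and ddit4, an inhibitor of mTOR signalling, one of 0.77, with 2.17, 3.30 and 6.08 CPM in hm41 69, 70 and 71, against 2.43, 1.88 and 2.36 CPM in WT 66, 67 and 68. For ddit4 the high library was hm41 71.

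The remaining stress genes named by the rule differed in sign. The asparagine synthetase gene asns had a log2 fold change of -0.38 and slc7a11, a cystine transporter gene at under 0.5 CPM, one of 1.45. The abundant chaperone gene hsp90ab1 had 106, 110 and 107 CPM in hm41, against 133, 136 and 162 CPM in WT, a log2 fold change of -0.42 with no overlap (adjusted p = 0.397, edgeR). DESeq2 called hsp90ab1 (-0.40, adjusted p = 0.0465). Of the 21 heat shock genes, 3 had no overlap with hm41 higher and 2 with hm41 lower, against 8.09% and 8.44% of all tested genes. For the low chaperone and cochaperone genes hspe1, bag3 and dnajb1b the values were 1.00, 0.89 and 0.62 on the log2 scale (adjusted p = 0.397, 0.412 and 0.544, edgeR).

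**Figure D5:**
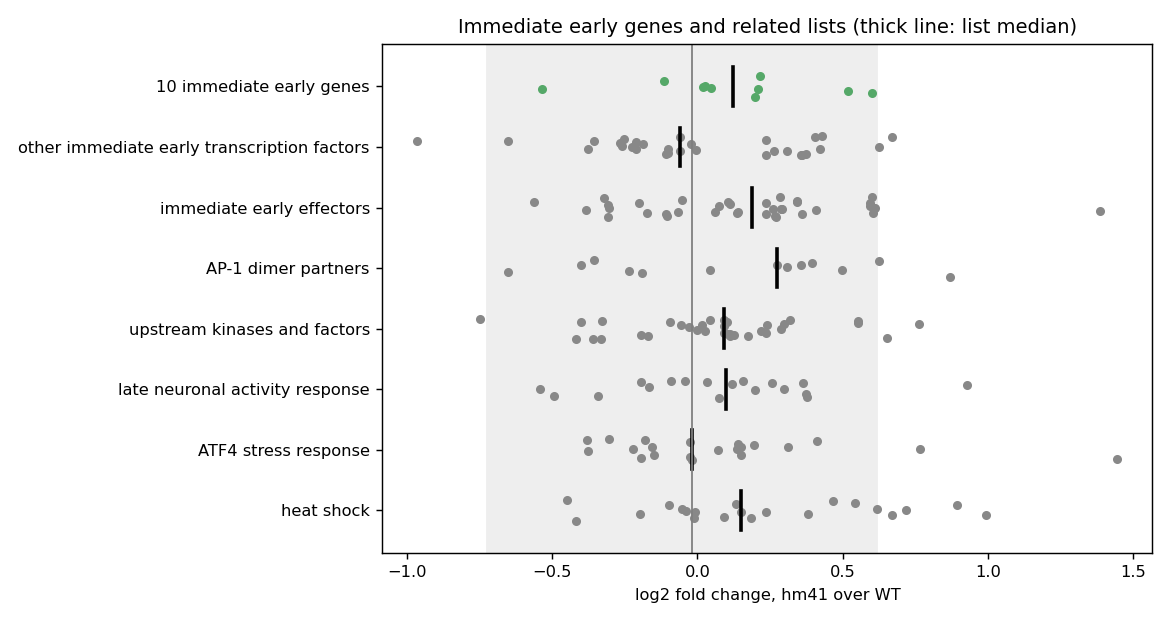
Log2 fold change of hm41 over WT (horizontal axis) for the tested genes of each list (points, spread vertically at random within a list), with list medians as thick lines and the range of the central 90% of all tested genes (from -0.73 to 0.62) shaded. The 10 immediate early genes lie within this range, with medians of 0.12 for them and 0.19 for the immediate early effectors.

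Marker lists of 12 tissues and cell types describe RNA levels in the pooled heads and not numbers of cells. Counting unadjusted p-values under 0.05, hm41 was higher and never lower for 5 of 8 neuron, 4 of 8 radial glia and 4 of 8 photoreceptor markers, and of 8 epidermis markers 0 were higher and 5 lower in hm41 (edgeR). The neuron markers summed to 109 to 139 CPM in hm41, against 81.2 to 92.9 CPM in WT, and the epidermis markers to 798 to 904 CPM in hm41, against 1196 to 1307 CPM in WT. Those of radial glia summed to 105 to 123 CPM in hm41, against 72.2 to 94.6 CPM in WT. Neutrophil markers, of which cxcr1 was at 0 in all libraries, summed to 5.93 to 17.9 CPM in hm41, against 6.99 to 7.92 CPM in WT. For macrophage and microglia markers 0 were higher and 2 of 5 tested lower, for liver 3 of 8 higher and 0 lower, for red blood cells 0 higher and 1 of 8 lower, for muscle, endothelium, lens and neutrophils 1 each higher and 0 lower, and for cartilage 0 in either direction. Among all tested genes 5.35% were higher and 5.05% lower at this threshold. All 8 lens markers had log2 fold changes above 0 (median 1.14). Their sums overlapped, at 52.8 to 106 CPM in hm41 and 10.5 to 71.8 CPM in WT. Photoreceptor markers summed to 324 to 339 CPM in hm41, against 154 to 223 CPM in WT. Macrophage and microglia markers summed to 11.4 to 20.8 CPM in hm41, against 13.5 to 16.4 CPM in WT, with overlap. By the edgeR test over all genes, opn1sw1 of the photoreceptor list was called higher in hm41 and csf1ra of the macrophage list lower. The part of tissue make-up in the immediate early gene levels was not tested.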

How the data were processed

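The deposited table held expected counts (unscaled estimates of the reads per gene) for 30421 rows in 6 bulk libraries. Per the submitters' processing notes, RSEM, TopHat and Bowtie2 were used with GRCz11, while the annotation, the strandedness of counting and the tools' roles and versions were not given in the sources used here. In each library 17.8% to 23.2% of values were not whole, and all were rounded to whole counts. The single-cell sample, which mixes genotypes and ages, was not analysed here.

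All 6 libraries were fitted with edgeR 4.0.16 in R 4.3.3 (filterByExpr, TMM, robust quasi-likelihood F-test, no covariate, two-sided), with Benjamini-Hochberg adjustment over 19275 genes and a threshold of 0.05. Genes past it are called. Log2 levels used a prior count of 0.5. Ratios were tested with exact permutation in scipy 1.17.1. Alternatives were DESeq2 1.42.0, other scalings, no filter, a term for the LOC110438492 split and the omission of libraries.

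The steps were tested on simulated data: of 50 genes changed by each fold between hm41 and WT, edgeR over 19039 genes recovered 2 at 1.5-fold, 20 at 2-fold, 48 at 3-fold and 46 at 4-fold, with 10 calls among unchanged genes. The 10 genes and the 19 other lists (282 symbols, 275 matched to a row) were chosen with earlier results of these data known. Genes were named by rule: the 10, up to 4 with the smallest p per list other than markers, and the 8 most alike in pattern with a symbol and at least 20 counts on average. The called markers opn1sw1 and csf1ra, and cxcr1, were named after their values were seen.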

Additional observations from a re-analysis of the deposited data

How the results depend on the processing

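None of the 10 genes was called under any of the 13 alternatives, but DESeq2 gave 7 of them no adjusted p and so could not call these. Of the 10 genes, 6 (fosab, egr1, junba, npas4a, ier2a and nr4a1) kept their direction in all 13. The alternatives refit the same 6 libraries and are not independent of each other. For fosab, ier2a and nr4a1, whose groups did not overlap, leaving out libraries could hardly turn the sign. The log2 fold change ranged from 0.46 to 0.83 for nr4a1, from 0.40 to 0.74 for ier2a and from -0.76 to -0.30 for egr1. Of 130 values 15 changed sign, each no larger in size than 0.09. With library totals alone, which move the median of all genes to 0.20, ier2b was at 0.0853, the median of the 10 genes at 0.33, the gap between the highest and lowest library at 0.58 (against 0.36), and 47 genes were called. With a term for the LOC110438492 split junbb was at -0.0331, atf3 at -0.0119, and 19 genes were called. No filter gave 131 called genes and DESeq2 191, with 1 heat shock gene among them, hsp90ab1. Without 1 library the values ran from -0.0175 to 0.106 for jun, from -0.0457 to 0.103 for junbb, from -0.0823 to 0.266 for atf3 and from -0.216 to 0.0374 for ier2b. In such fits the median of the 10 genes ran from 0.035 (without hm41 71) to 0.22 (without hm41 69), the count of called genes from 6 (without hm41 70) to 44 (without WT 68), or 20 without hm41 69, and the calls of other immediate early transcription factors and of effectors from 0 to 1. Without both hm41 69 and WT 67, an alternative chosen after seeing the data, the median was 0.22 and csrnp1b was the 1 other transcription factor called. The cause of these shifts was not tested. No paired analysis was run, because the labels do not say whether any of the 6 libraries are paired. With 12 to 392 counts a gene and 3 libraries a group, differences near 1.5-fold were mostly below what the test recovered in simulated data.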
